A study of Homo sapiens with 18 samples.

Results

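Chromatin modifiers and remodellers are the enzymes and complex subunits that write and remove marks on histones and DNA or move nucleosomes. The group was chosen by gene symbol, with earlier results of these data known, as 59 genes in the spelling the lists use. They comprise 16 histone methyltransferases and subunits, 16 nucleosome remodellers and subunits, 11 histone demethylases, 6 histone acetyltransferases, 5 histone deacetylases and 5 enzymes of DNA methylation. Of the 59 genes, 46 had at least 1 listed site, out of 4393 genes with a site and a symbol in all. MLL, MLL2, MLL3, MLL5, WHSC1 and WHSC1L1 are the older names of KMT2A, KMT2D, KMT2C, KMT2E, NSD2 and NSD3.

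N6-methyladenosine (m6A) is written on adenosines within RRACH motifs by an enzyme built from METTL3 and METTL14. hnRNP C is an abundant nuclear protein that coats newly made transcripts and binds runs of uridines (U-tracts), many of them in introns. A methylated base can loosen the fold of the RNA around it, so that a U-tract held in a hairpin becomes open to hnRNP C, and such a place is called an m6A switch. Genes with large introns offer more pre-mRNA to an intron-binding protein, but gene and intron length were not used here.

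The study used HEK293T, a human embryonic kidney cell line, in 18 samples that form 9 groups of 2. PAR-CLIP of hnRNP C, which crosslinks a protein to the RNA it touches, was done in wild-type control cells and after METTL3 or METTL14 knockdown. PARCLIP-MeRIP, which adds a pull-down with an m6A antibody, was done in wild-type cells with an input and an enriched (IP) group. RNA-seq covered wild-type, HNRNPC-knockdown, METTL3-knockdown and METTL14-knockdown cells, and the labels give neither the knockdown reagent nor separate cultures behind the replicates. The values used here were 2 lists of sites of the whole series with no value per sample, so no test between conditions could be made, read depth is unknown, and every share below is a description. The first, called the switch list, holds 13378 distinct U-tracts from PARCLIP-MeRIP. The other, named HCS by the submitters, holds 2748 and also says whether each lies in an exon or an intron. In both lists a U-tract of at least 5 nt is paired with an RRACH motif at a listed distance of at most 50 nt.

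The chromatin genes held 251 switch sites in 44 genes and 65 HCS sites in 27 genes. A total of 25 U-tracts were in both lists, so the genes held 291 different sites. The 11 members with 10 or more switch sites held 159 of the 251. The 7 members with 4 or more HCS sites held 32 of the 65. The same shares were not computed over all genes, so whether sites were more concentrated in the members is unknown. At the other end, 9 members had 1 switch site (20.5% of the 44, against 39.1% of all genes with a switch site), 19 had 2 to 4 and 5 had 5 to 9. Of the 27 members with an HCS site, 11 had 1 (40.7%, against 68.4% of all genes with an HCS site).

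**Figure D1:**
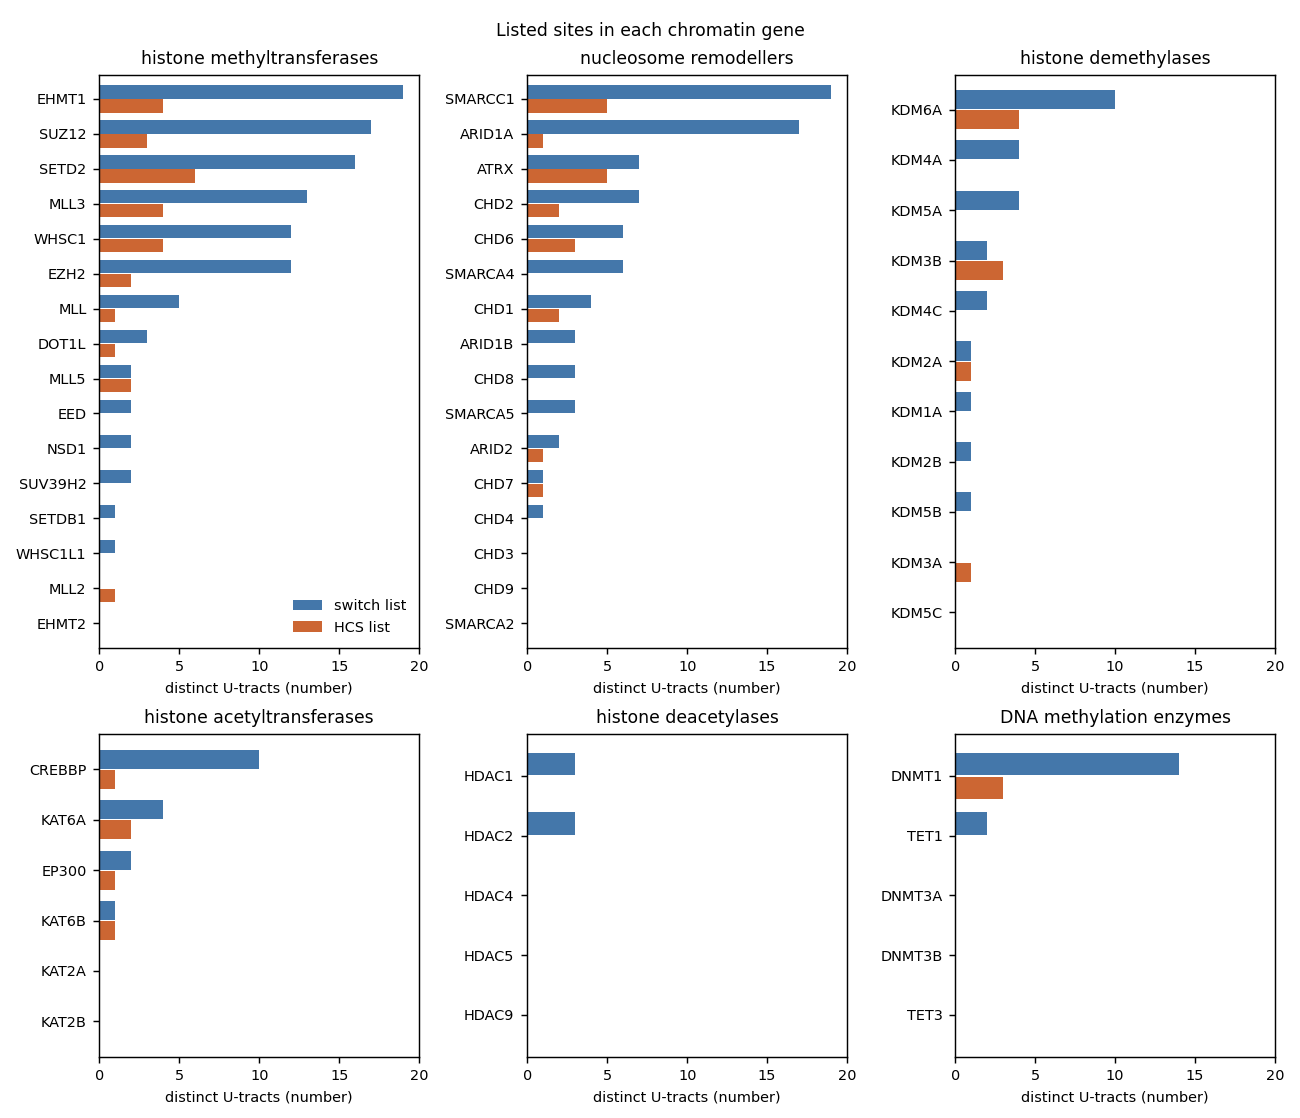
Number of distinct U-tracts per gene in the switch list (blue) and the HCS list (orange), one panel per role. EHMT1 and SMARCC1 reached 19 switch sites, SETD2 reached 6 HCS sites, and 13 genes had no bar in either list.

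Among the histone methyltransferases and their subunits, 14 of 16 genes held switch sites (107 sites) and 10 held HCS sites (28 sites). EHMT1, which with EHMT2 writes a repressive histone mark, held 19 switch sites, while EHMT2 had 0 in both lists. SUZ12 and EZH2, the scaffold and the catalytic subunit of a Polycomb repressive complex, held 17 and 12. EED, the subunit of the same complex that reads its product, held 2. SETD2, which marks the bodies of transcribed genes, held 16, MLL3 13, WHSC1 12 and MLL 5. The rest were low, with 3 in DOT1L, 2 each in MLL5, NSD1 and SUV39H2, and 1 each in SETDB1 and WHSC1L1.

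SETD2 had the most HCS sites of the group, 6, all intronic, where the most in any gene was 9. Those in both lists lay on the minus strand at chr3:47166455-47166459, chr3:47144262-47144281 and chr3:47074760-47074764 (hg19, as are all positions here), with U-tracts of 5, 20 and 5 nt. Those outside the switch list were at chr3:47202581-47202585, chr3:47195248-47195260 and chr3:47195241-47195246. The last pair, tracts of 13 and 6 nt, shared an RRACH motif upstream of both. The 3 HCS sites outside the switch list were the 3 nearest the transcript start, at 2882, 10207 and 10221 nt, and the 3 inside it lay at 39008, 61186 and 130703 nt. Positions along a transcript count from its start with introns included. Of the 16 switch sites, 8 lay in the first 10000 nt.

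The 4 HCS sites of EHMT1, on the plus strand of chromosome 9, were all intronic. The pair near the transcript start, chr9:140519088-140519092 and chr9:140519812-140519817, were not in the switch list. The pair near the far end, chr9:140719007-140719011 and chr9:140724785-140724789, were in both lists, with gaps to the motif of 4 and 0 nt. The gap is the number of bases between U-tract and motif. EHMT1 also had the largest median listed distance among the members with 10 or more switch sites, 39 nt, and the motif lay downstream of 14 of its 19 switch sites.

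MLL3, a methyltransferase of enhancers encoded on chromosome 7 (minus strand), held 4 HCS sites, with listed sites reaching to 300346 nt from the transcript start. The exonic site at chr7:151833417-151833421 and the intronic site at chr7:151891874-151891878 were in both lists. The intronic sites chr7:151992148-151992155 and chr7:152057261-152057266 were in the HCS list only, and the nearest switch sites of MLL3 were 27977 and 37124 nt away. In WHSC1, whose product methylates histones across genes and intergenic regions, the intronic site at chr4:1954880-1954884 was in both lists. Its exonic site at chr4:1948342-1948346 overlapped its motif by 1 base and was in the HCS list only, as were the intronic sites at chr4:1891088-1891093 and chr4:1937262-1937267. A WHSC1 switch U-tract of 25 nt, at chr4:1940143-1940167, was the longest among the methyltransferases.

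The subunits of the Polycomb complex differed in how their lists met. SUZ12 held 17 switch sites and 3 intronic HCS sites, and 0 of the 3 were in the switch list. They lay at chr17:30265578-30265582, chr17:30284607-30284611 and chr17:30315778-30315783, and their nearest switch sites were 3456, 4009 and 2150 nt away. EZH2 held 2 intronic HCS sites, of which chr7:148562706-148562710 was in both lists and chr7:148555888-148555896 was not. Each gene had a motif with 2 switch U-tracts at downstream gaps of 40 and 48 nt, at 4817 and 4809 nt in EZH2 and at 5005 and 4996 nt in SUZ12. EHMT1 had the same arrangement at 204742 and 204734 nt. These were 3 of the members' 208 switch motifs, and in the whole switch list 138 of 11445 motifs had U-tracts at both gaps. In the other chromatin genes described below it was 4 of 281.

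**Figure D2:**
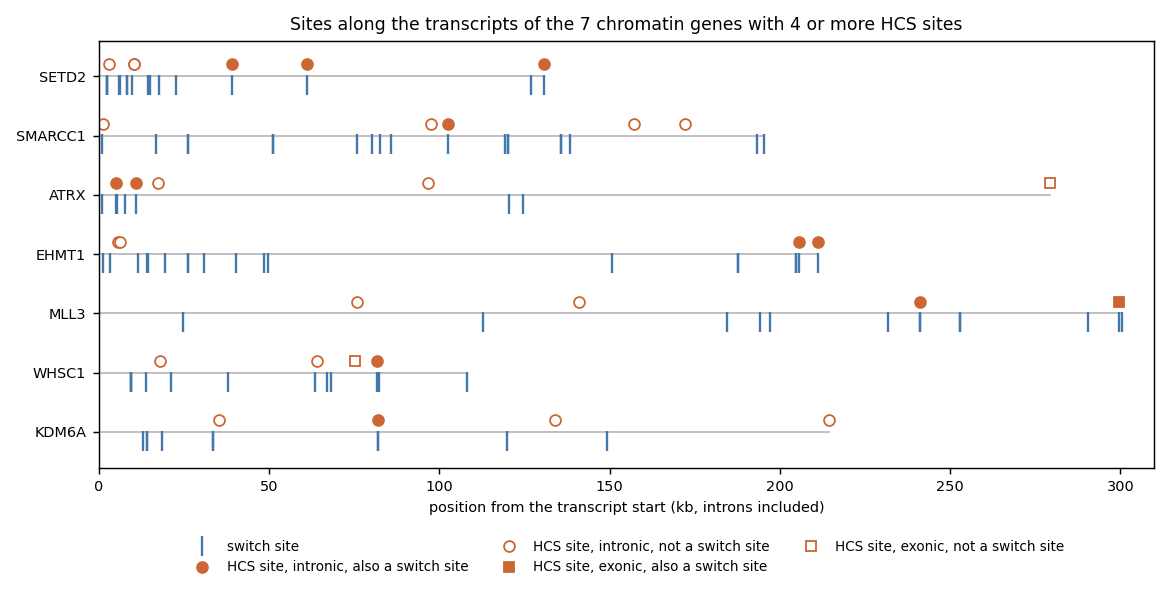
Sites along the transcripts of the 7 genes with 4 or more HCS sites, by distance from the transcript start in kb with introns included. Ticks are switch sites, circles intronic and squares exonic HCS sites, filled where the site was in both lists, and each grey line ends at the last listed site, not at the end of the gene. The exonic squares of MLL3 and ATRX stand at 299669 and 279308 nt, and the filled circles of SETD2 stand further along the transcript than its open ones.

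Among the nucleosome remodellers, which use ATP to slide or replace nucleosomes, 13 of 16 genes held switch sites (79 sites) and 8 held HCS sites (20 sites). In the switch list were 4 of these 20 (20%, exact binomial 95% interval 5.73% to 43.7%), in SMARCC1, ARID1A and ATRX, against 40.1% of all HCS sites, a share inside that interval. The intervals of shares cover counting error only, not errors of site calling. Intervals over sites also treat each site as independent. Many sites came from the same genes or shared a motif, so these intervals may be too narrow. For the methyltransferases the share in the switch list was 12 of 28 (42.9%, interval 24.5% to 62.8%), and the intervals of both roles overlap.

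SMARCC1, a core scaffold of the BAF complex, held 19 switch sites and 5 HCS sites, all in introns (chromosome 3, minus strand). Of its HCS sites, chr3:47720904-47720908 was in both lists. The site at chr3:47822044-47822050 lay 270 nt from a switch site, the shortest such distance of any member's HCS site outside the switch list. The remaining 3 were at chr3:47725804-47725808, chr3:47666097-47666101 and chr3:47651348-47651352. SMARCC1 had the motif downstream in 15 of 19 switch sites and 4 switch U-tracts of 8 nt or more.

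ATRX, a remodeller of repeat-rich chromatin encoded on the X chromosome, held 7 switch sites and 5 HCS sites. Its sites chrX:77036635-77036639 and chrX:77030866-77030872, both intronic, were in both lists and lay at 5116 and 10883 nt. The intronic sites chrX:77024401-77024405 and chrX:76945094-76945098 and the exonic site chrX:76762443-76762447 were in the HCS list only. That exonic site stood 154577 nt from the nearest switch site of the gene, the longest such distance in the group.

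ARID1A, the BAF subunit with DNA-binding activity, held 17 switch sites and 1 HCS site, at chr1:27034464-27034468, in an intron and in both lists. Its switch sites fell on 12 motifs, 1 of which, at chr1:27102692-27102696, was paired with 3 U-tracts. ARID1B and ARID2, which are subunits of related complexes, held 3 and 2 switch sites, and ARID2 also held 1 HCS site. Among the CHD remodellers, CHD2 held 7 switch sites and 2 HCS sites, CHD6 6 and 3, CHD1 4 and 2, and CHD7 1 and 1, and in none of these 4 genes was a site in both lists. CHD8 (3 switch sites, all on 1 motif) and CHD4 (1) had no HCS site, and CHD3 and CHD9 had 0 in both lists. SMARCA4, the main ATPase of BAF complexes, held 6 switch sites and no HCS site, SMARCA5, the ATPase of ISWI complexes, held 3 and 0, and SMARCA2 had 0 in both.

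Of the histone demethylases, 9 of 11 held switch sites (26 sites) and 4 held HCS sites (9 sites). KDM6A, the X-linked enzyme that removes the Polycomb mark, held 10 switch sites and 4 intronic HCS sites. Its site chrX:44814278-44814282 touched its motif (gap 0 nt) and was in both lists. Those at chrX:44767623-44767627, chrX:44866348-44866353 and chrX:44946790-44946796 were in the HCS list only. KDM3B, a demethylase of a repressive mark, was the member with more HCS than switch sites among those with both, 3 against 2. Its exonic U-tracts chr5:137772200-137772205 and chr5:137772213-137772217 shared a motif and were in both lists, and its intronic site chr5:137690600-137690605 was in the HCS list only. KDM3A, its paralogue, held 1 HCS site, chr2:86704485-86704489 in an intron, and no switch site. KDM4A and KDM5A held 4 switch sites each, KDM4C 2, and KDM1A, KDM2A, KDM2B and KDM5B 1 each. Of these KDM2A alone held an HCS site, and KDM5C had 0 in both lists.

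Of the histone acetyltransferases, CREBBP, EP300, KAT6A and KAT6B held 17 switch sites and 5 HCS sites together. The paralogues CREBBP and EP300, coactivators with a shared domain plan, differed in number and region. CREBBP held 10 switch sites and 1 intronic HCS site, chr16:3816199-3816203, not in the switch list. EP300 held 2 switch sites and 1 exonic HCS site, chr22:41575159-41575163, in both lists. KAT6A held 4 and 2, KAT6B 1 and 1 (the same U-tract, chr10:76622272-76622276), and KAT2A and KAT2B had 0 in both lists. Of the deacetylases, which remove acetyl groups from histones, HDAC1 and HDAC2 held 3 switch sites each and HDAC4, HDAC5 and HDAC9 had 0. None of these member deacetylases held an HCS site. The 3 U-tracts of HDAC2 lay within 18 nt, at chr6:114262074-114262091, on 1 motif.

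DNMT1, which copies DNA methylation after replication, held 14 switch sites and 3 HCS sites, all in introns (chromosome 19, minus strand). All 3 were in both lists, at chr19:10289504-10289509, chr19:10283081-10283099 and chr19:10269857-10269861. It also held the longest U-tract of the group, 44 nt at chr19:10275589-10275632, in the switch list only. TET1, an enzyme that oxidises methylcytosine, held 2 switch sites on 1 motif. The de novo methyltransferases DNMT3A and DNMT3B, and TET3, had 0 in both lists. With EHMT2, KDM5C, KAT2A, KAT2B, HDAC4, HDAC5, HDAC9, SMARCA2, CHD3 and CHD9 they make up the 13 members in neither list. Whether their RNA was present was not analysed here.

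Of the 44 members with a switch site, 25 also held an HCS site (56.8%, exact binomial interval 41.0% to 71.7%), against 36.7% of all 4075 genes with a switch site. Members also held more switch sites each. Of the 44, 11 had 10 or more (25%), against 5.72% of all genes with a switch site, and the medians were 3 and 2. The share with an HCS site rose with that number in the whole list. At 1 switch site, 3 of 9 members held an HCS site, against 19.7% of all genes. At 2 to 4 sites it was 7 of 19 (36.8%), against 36.5%. At 5 to 9 sites it was 4 of 5, all but SMARCA4, against 63.6%. At 10 or more it was 11 of 11, against 83.7%. With so few members in each class their intervals were wide, from 7.49% to 70.1% at 1 site, 28.4% to 99.5% at 5 to 9 and 71.5% to 100% at 10 or more. They do not show whether the share differed from that of all genes at a like number of sites. The members were also chosen with earlier results of these data known, so the contrasts with all genes describe this list of genes only.

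**Figure D3:**
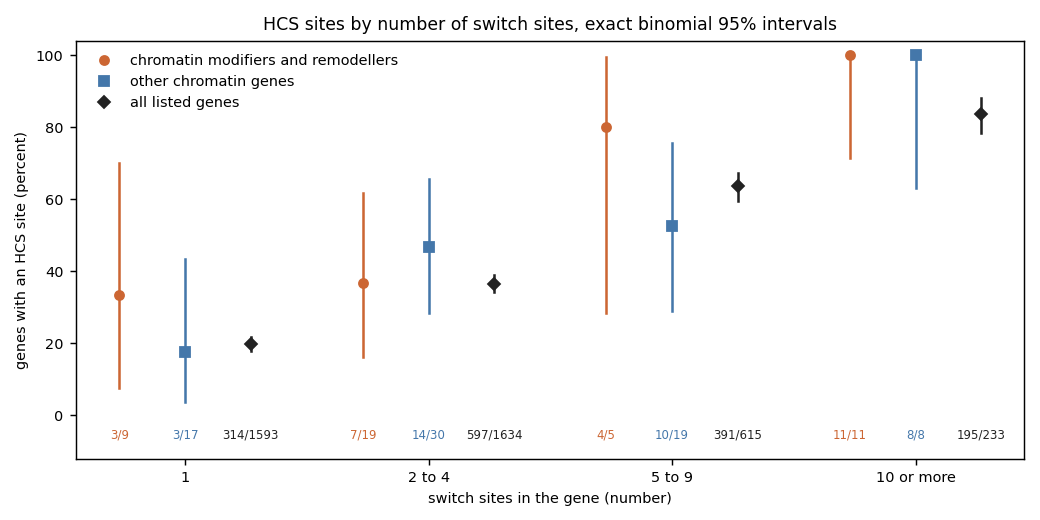
Share of genes with an HCS site, in percent, by the number of switch sites in the gene. Circles are the chromatin modifiers and remodellers, squares the other chromatin genes and diamonds all listed genes, with exact binomial 95% intervals as lines and the counts printed under each. At 2 to 4 switch sites the circle (36.8%) and the diamond (36.5%) are level, and at 10 or more the shares are 100% and 83.7%.

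Of the 65 HCS sites of the members, 25 were in the switch list (38.5%, interval 26.7% to 51.4%), close to the 40.1% of the whole HCS list. In the other direction, 25 of the 251 switch sites were HCS sites (9.96%, interval 6.55% to 14.4%), against 8.24% of all switch sites. The sites in both lists came from 17 genes, and 8 further genes held switch and HCS sites with none in common. Of the 40 HCS sites outside the switch list, 38 lay in a member with a switch site. Their nearest switch site was 8948 nt away in the median and lay within 1000 nt for 5 and within 100 nt for 0 of them. These distances and gene counts were not computed for the whole lists. They do not show whether the members differed from other genes in this.

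The overlap was also split by U-tract length, after the values were seen. Of the members' HCS U-tracts of 5 nt, 20 of 42 were in the switch list (47.6%, interval 32.0% to 63.6%), against 38.8% of all such sites. Of those of 6 nt or more, 5 of 23 were (21.7%, interval 7.46% to 43.7%), against 42.8% of all such sites. Of 9 HCS U-tracts of 8 nt or more, the 20 nt tract of SETD2 and the 19 nt tract of DNMT1 were in both lists (22.2%), against 51.4% of all such tracts. Those outside the switch list were in CHD6 (8 and 11 nt), CHD2 (14 nt), SETD2 (13 nt), MLL2 (10 nt), EZH2 (9 nt) and MLL3 (8 nt). In the other chromatin genes described below, 9 of 20 HCS U-tracts of 6 nt or more were in the switch list (45%), and 1 of 2 of those of 8 nt or more.

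Exons held 7 of the 65 HCS sites (10.8%, interval 4.44% to 20.9%), against 17.0% of all HCS sites. They were the pair in KDM3B and 1 each in MLL2, MLL3, WHSC1, EP300 and ATRX. Of the 7, 4 were in the switch list, against 58.0% of all exonic HCS sites. Of the 58 intronic sites 21 were (36.2%), against 36.4% of all intronic ones. Of the 4 members with exonic and intronic HCS sites, the exonic ones were the last along the transcript in MLL3, KDM3B and ATRX, and in WHSC1 the exonic site at 75221 nt came before an intronic one at 81759 nt. MLL2, a relative of MLL3, held 1 HCS site and no switch site, an exonic U-tract of 10 nt at chr12:49413198-49413207. The listed distance of the exonic sites ran from 4 nt in WHSC1 to 43 nt in KDM3B. The exonic sites of MLL2 and EP300 and the 9 nt tract of EZH2 all had the motif 28 nt upstream. This gap held 3 of the members' 65 HCS sites (4.62%, interval 0.962% to 12.9%), against 26 of all 2748 (0.946%). The other chromatin genes had 0 of 60 HCS sites at it. Of switch sites it held 6 of the members' 251 (2.39%, interval 0.882% to 5.13%), against 1.49% of all. For the other chromatin genes that was 9 of 337 (2.67%). Downstream gaps of 40 or 48 nt held 0 of the members' 65 HCS sites (interval 0% to 5.52%), against 1.38% of all. In the other chromatin genes it was 3 of 60 (5%). Of the members' 251 switch sites 14 had these gaps (5.58%), against 4.72% of all switch sites.

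**Figure D4:**
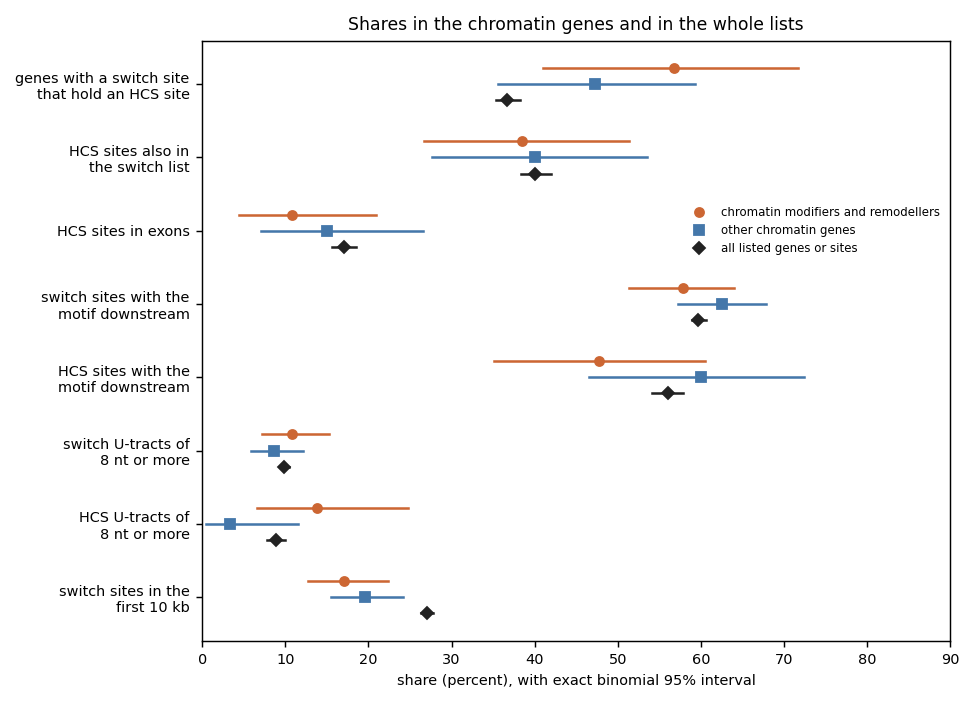
Shares in percent with exact binomial 95% intervals for the chromatin modifiers and remodellers (circles), the other chromatin genes (squares) and all listed genes or sites (diamonds). The circle lies to the right of the diamond for genes that hold an HCS site (56.8% and 36.7%) and to its left for switch sites in the first 10 kb (17.1% and 27.1%).

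Most geometry of the sites was near that of the whole lists. The U-tract was exactly 5 nt in 63.7% of the members' switch sites and 63.7% of all, and in 64.6% of their HCS sites and 66.7% of all. Tracts of 8 nt or more made up 27 of 251 switch sites (10.8%, against 9.88%) and 9 of 65 HCS sites (13.8%, interval 6.53% to 24.7%, against 8.84%). The motif lay downstream in 145 switch sites (57.8%, against 59.7%) and in 31 HCS sites (47.7%, interval 35.1% to 60.5%, against 56.0%). U-tract and motif touched or overlapped in 21 switch sites (8.37%, against 5.79%) and 10 HCS sites (15.4%, interval 7.63% to 26.5%, against 9.93%).

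The median listed distance was 23 nt in the members' switch sites (interval of the median 19 to 26) and 19 nt in all switch sites. For HCS sites both medians were 13 nt. The listed distance includes the 5 nt of the motif where it lies upstream. With 1 U-tract per motif the switch medians were 18 and 17 nt. Of the members' 208 switch motifs, 39 had more than 1 U-tract (18.8%, interval 13.7% to 24.7%), against 15.3% of all. ARID1A, CHD8, HDAC2 and SETD2 each had a motif with 3. Another switch site lay within 100 nt of 92 of the 251 (36.7%, interval 30.7% to 42.9%), against 30.8% of all switch sites. Sites with a neighbour come in groups by definition, so this interval, which counts each site alone, may be too narrow. The other chromatin genes had like values, with a median distance of 22 nt, 18.9% of motifs with more than 1 U-tract and 36.2% of sites with a neighbour.

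**Figure D5:**
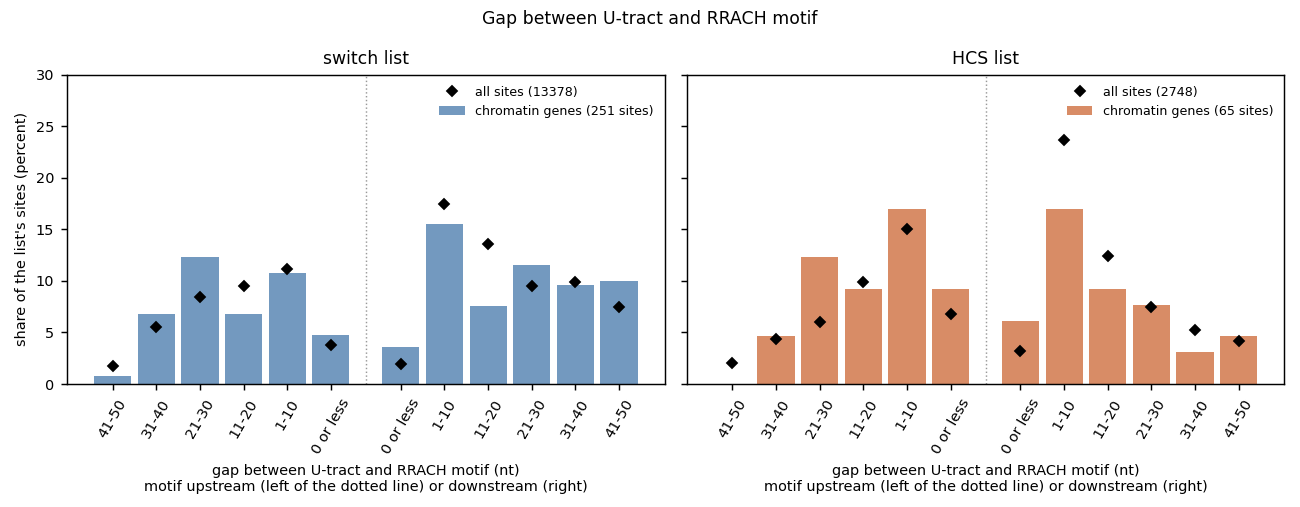
Share of sites, in percent, by the gap between U-tract and RRACH motif, for motifs upstream and downstream of the tract. Bars are the chromatin genes and diamonds all sites of the list. Upstream gaps of 21 to 30 nt held 12.4% of the members' switch sites against 8.48% of all, and 12.3% of their HCS sites against 5.97%.

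Upstream gaps of 21 to 30 nt, picked after the plot of gaps was seen, held 31 of the members' switch sites and 8 of their HCS sites. The HCS sites were in SETD2 (2 sites), WHSC1, EZH2, MLL2, DOT1L, EP300 and SMARCC1. Downstream gaps of 11 to 20 nt were the other way, with 19 switch sites (7.57%, against 13.5% of all). That bin was picked in the same way.

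The median position was 36103 nt for switch sites (interval of the median 30275 to 44895) and 56128 nt for HCS sites (interval 35894 to 75824). Over all listed sites it was 22556 and 23866 nt, and in the other chromatin genes 29126 and 33382 nt. With U-tracts of 6 nt or more alone, the HCS median of the members was 25545 nt (23 sites). The first 10000 nt held 43 of the members' switch sites (17.1%, against 27.1% of all) and 11 of their HCS sites (16.9%, against 26.1%). Beyond 100000 nt lay 50 switch sites (19.9%, against 7.97%) and 14 HCS sites (21.5%, against 9.72%). In the other chromatin genes 19.6% of switch sites lay in the first 10000 nt and 13.1% beyond 100000 nt, and for HCS sites these shares were 11.7% and 13.3%. By role, 28 of the 107 switch sites of the methyltransferases were in the first 10000 nt, and 13 of 79 of the remodellers. For the demethylases it was 0 of 26 (interval 0% to 13.2%). The acetyltransferases had 0 of 17 there, the deacetylases 0 of 6 and the enzymes of DNA methylation 2 of 16. A position can be large only in a long gene, and gene length, which was not used here, cannot be told apart from position in these values.

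A further 126 genes of related enzymes and complex partners were set beside the members, by role. Of these, 74 held switch sites (337 sites) and 38 held HCS sites (60 sites). Of the 74, 35 also held an HCS site (47.3%, interval 35.6% to 59.3%), a value between that of the members and that of all genes, and no test of these differences was made. Of the further methyltransferases and their partners 20 of 32 held switch sites and 11 HCS sites. They included RBBP4, a histone-binding partner of EZH2 and SUZ12, with 16 switch sites and 2 HCS sites, and SETD5 and SMYD3 with 6 and 2 each. Of the further deacetylases and their partners 10 of 20 held switch sites and 6 HCS sites. GATAD2B and GATAD2A, subunits of the NuRD complex, held 11 and 8 switch sites and 4 and 3 HCS sites, and TBL1XR1, of a corepressor complex, held 8 and 2. HDAC1 and HDAC2, the deacetylase subunits of NuRD, had no HCS site.

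Among the further remodellers and their partners 23 of 36 held switch sites and 12 HCS sites. The most HCS sites were in HELLS, a helicase needed for DNA methylation, which held 14 and 3. BAZ1A and PHF10 held 3 and 2 each. Of the acetyltransferase group 9 of 17 held switch sites and 4 HCS sites, with the most in the coactivator NCOA2 (13 and 4), while ING5 and TADA2A held 5 and 1 each. Of the demethylase group 6 of 9 held switch sites, and KDM4B and PHF8 held 1 HCS site each. Around DNA methylation, MBD5 held 2 switch sites and 2 HCS sites, and TDG, a glycosylase that removes mismatched thymine, held 0 and 1. Exons held 9 of the 60 HCS sites of these genes (15%), and 24 of the 60 were in the switch list (40%).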

How the data were processed

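Titles gave the groups of the 18 samples. Positions refer to hg19, per the submitters' processing notes, which name Bowtie 1.0.0 and Trimmomatic and, for RNA-seq, DESeq, Cuffdiff, Cufflinks and TopHat 1.1.4. The calling of sites, its thresholds and any pooling of replicates were not given in the sources used here. The authors deposited 17352 and 2798 entries that, per the file headers, hold positions, U-tract length and distance, with no value per sample, so read depth is unknown and replicates could not be compared.

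Each U-tract, known by its strand and coordinates, was counted once, and 3 copies on the Y chromosome were left out. Genes are the listed symbols. The 756 and 4 entries without one counted as sites but not as genes. Where a U-tract was listed under several transcripts, as for 56 member switch sites, the position from the most upstream start was taken. Listed length and distance matched the positions in all entries. No member site was listed under a further gene. Shares have exact binomial (Clopper-Pearson) 95% intervals, and medians have intervals from order statistics. Intervals over sites leave out that sites of the same gene or motif share a source, so they may be too narrow. Gaps, sides and intervals were tested on simulated data. No test was made, since the lists hold no replicate values. The members and gene lists were chosen with earlier results of these data known. Members described with all their HCS sites are those with 4 or more, and members named with counts are those with an exonic HCS site, HCS sites but no switch site, 10 or more switch sites and no HCS site (0 genes) or no site at all, and up to 4 per role by switch sites. Of the other chromatin genes up to 3 per role were named by HCS sites. A result that this rule would name is not reported here. Every other member is also given by its counts, and further sites were named after their values were seen. Intervals came from scipy 1.17.1, tables from pandas 2.3.3 with numpy 2.4.6 and figures from matplotlib 3.10.9, under Python 3.11.15. A RefSeq table of GRCh38, used for names only, gave a symbol by transcript to 753 and 4 entries without one, and added no member site.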

Additional observations from a re-analysis of the deposited data

How the results depend on the processing

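Of 74 values recomputed under alternatives, 69 stayed within the 95% interval of the reported value. The alternatives were 1 U-tract per motif, merging sites within 100 nt, U-tracts of 6 nt or more, leaving out sites under several genes, leaving out the member with the most sites (EHMT1, level with SMARCC1, or SETD2), looking up missing symbols, the edge-to-edge gap, and counting every entry. Leaving out sites under several genes and looking up missing symbols touched no member site. Counting every entry changed nothing in the HCS list, where the members had 65 entries for 65 sites. With 1 U-tract per motif or sites merged each gene keeps a site, so the share with an HCS site stayed at 25 of 44. All these values could not move, and they count among the 69, which therefore overstates how stable the results were. The alternatives for position and neighbours were added after the data were seen. The median switch distance moved from 23 to 18 nt with 1 U-tract per motif and to 18 nt with sites within 100 nt merged, since each alternative keeps the nearest U-tract. With U-tracts of 6 nt or more, 40.6% of members with a switch site held an HCS site (13 of 32, against 23.1% of all genes), 21.7% of HCS sites were in the switch list, and the median HCS position was 25545 nt. The cause was not tested. The share of 5 nt tracts has no value for longer tracts, and the position as a share of the transcript was not computed because gene length was not used. No paired analysis was possible because the lists hold no values per sample, and leaving out replicates was not possible for the same reason. Depth is unknown, so its effect on which sites are listed was not measured.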
